A study of Homo sapiens with 12 samples.

Results

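MAPK feedback and output genes are a set of 10 genes that the RAS-ERK pathway induces: the phosphatase genes DUSP4, DUSP5 and DUSP6, the Sprouty and Spred genes SPRY1, SPRY2, SPRY4 and SPRED2, the ETS factor genes ETV4 and ETV5, and PHLDA1. They were taken by current symbol from the platform annotation, which names them on 27 of the 54675 probe sets of the array, each of these naming no other gene. The 10 members are among 19775 genes tested. Their transcripts were measured in 4 untreated human ovarian cancer cell lines, with 3 Affymetrix U133 Plus 2.0 arrays for each of IGROV1, SKOV3, TOV112D and TOV21G. All 4 are given in the labels as parental lines, no line carries an added allele or agent, and the design names no control line. SKOV3 was grown in DMEM and the other 3 lines in RPMI medium, each with fetal serum, so medium and line cannot be told apart for SKOV3. Each line is a culture model of 1 tumour, TOV21G of a clear cell and TOV112D of an endometrioid carcinoma.

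RAS, RAF, MEK and ERK form a kinase relay that carries signals from growth factor receptors to the nucleus. Active ERK switches on genes whose products restrain the same relay: dual-specificity phosphatases remove the activating phosphates from MAP kinases, and Sprouty and Spred proteins act upstream, between the receptor and RAF. ERK also raises transcription factors of the PEA3 group of ETS proteins (ETV1, ETV4, ETV5) and PHLDA1, a pleckstrin homology domain protein. The transcript levels of such genes are widely used as a readout of pathway output. No measurement of ERK phosphorylation is part of these data.

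All levels are log2 values after robust multi-array averaging (RMA), so a difference of 1 is 2-fold. Over all genes, the correlation was 0.9972 to 0.9976 within a line and 0.8892 to 0.9395 between lines. The labels name no separate cultures behind the 3 arrays of a line. The p-values therefore cover only their spread, which may be technical. ERBB2, the receptor gene whose amplification SKOV3 is known for, had a mean of 8.14 in the arrays labelled SKOV3 and 8.48 to 9.01 in the other lines. That group is therefore named by its label below, and no direction is claimed for SKOV3 itself. Of 11 markers of ovarian epithelium, 10 were above the median of all values (4.44) in IGROV1, 7 in TOV21G and 4 in each of the other groups. Single markers were mixed with the label SKOV3, where KRT8 (11.75), KRT18 (12.62) and WT1 (8.89) had their highest level of the 4 lines and KRT19 (2.76), CDH1 (2.95) and EPCAM (3.41) lay under that median. In TOV112D KRT19 (3.02), CDH1 (3.20) and WT1 (3.28) lay under it, and KRT8 (5.29), KRT18 (5.01) and EPCAM (6.29) above it. The mean level of 7 fibroblast markers was 4.07 to 4.08 over the arrays of IGROV1, 6.32 to 6.50 over those labelled SKOV3, 7.07 to 7.33 in TOV112D and 4.81 to 4.88 in TOV21G. That of 6 endothelial markers was 5.14 to 5.32 in the arrays labelled SKOV3 and 3.43 to 3.95 in the other lines, and that of 4 measured leucocyte markers was 3.05 to 3.61 in all lines. The part of these marker levels in the results below was not tested.

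The 10 genes did not share an order of lines. The arrays labelled SKOV3 were the highest group for 5 members (DUSP6, SPRY2, SPRY4, ETV5, PHLDA1), IGROV1 for 2 (DUSP5, SPRED2), TOV21G for 2 (DUSP4, SPRY1) and TOV112D for 1 (ETV4). TOV112D was the lowest for 5 (DUSP4, DUSP5, SPRY1, SPRY2, PHLDA1), IGROV1 for 3 (DUSP6, SPRY4, ETV4) and TOV21G for 2 (SPRED2, ETV5). A gene was called between 2 lines at an adjusted p under 0.05 (limma, Benjamini-Hochberg over all genes) together with a log2 difference of 1 or more. By that rule 9 of 10 members were called in at least 1 of the 6 pairs of lines, against 34.4% of all genes. Counted over the 60 combinations of member and pair, 37 were called, or 61.7%, against 16.6% over all genes. All 10 differed among the 4 lines by limma's moderated F test, with adjusted p up to 0.0018 (SPRED2), as did 69.5% of all genes. The median span between the highest and the lowest line mean was 3.25 for the members and 0.64 for all genes. The members were picked with results of these arrays known, so these counts describe them and are no test.

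**Figure D1:**
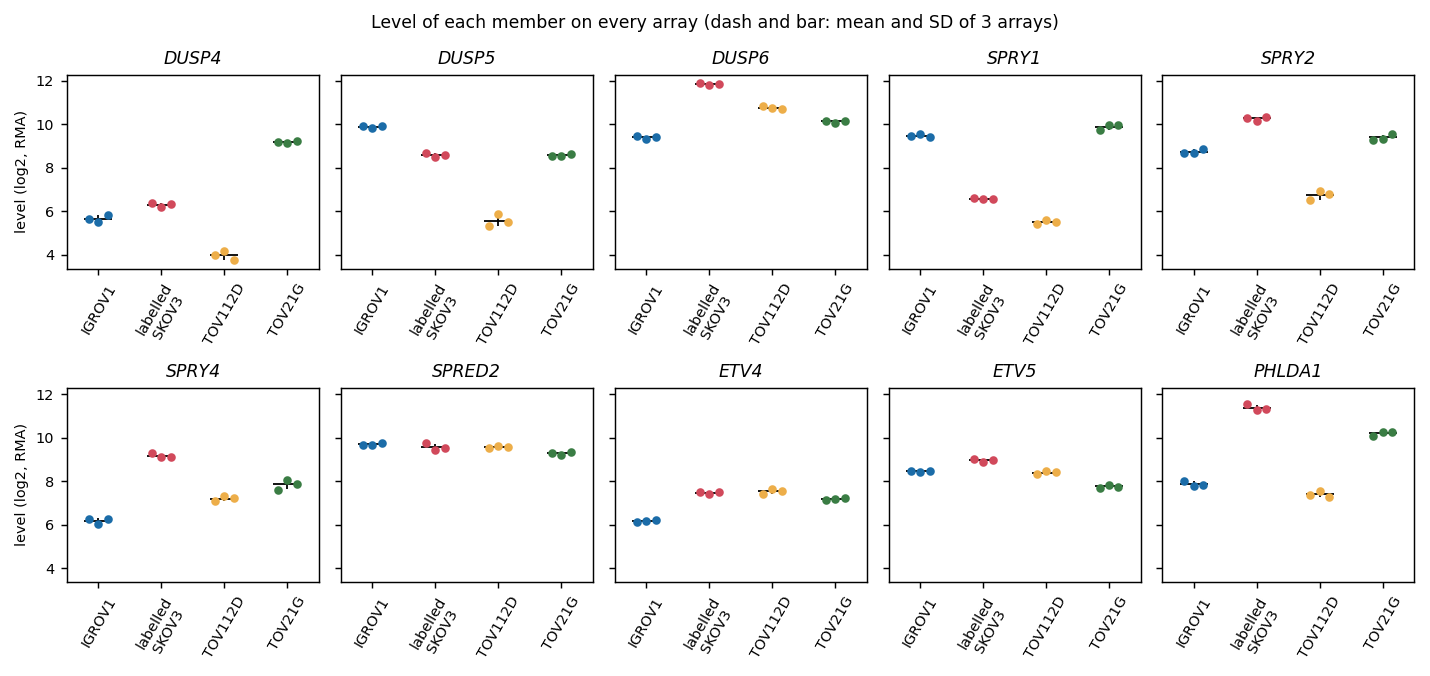
Level (log2 after RMA) of each of the 10 members on each of the 12 arrays; points are arrays, dashes and vertical bars the mean and SD of 3 arrays. TOV112D lies lowest for DUSP4, DUSP5, SPRY1 and SPRY2 but not for DUSP6, SPRY4 or ETV4.

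DUSP6 encodes the phosphatase that acts on ERK in the cytoplasm and is a widely used ERK output gene. Its levels were 9.45, 9.31 and 9.44 in IGROV1, 11.89, 11.80 and 11.85 with the label SKOV3, 10.86, 10.77 and 10.71 in TOV112D, and 10.18, 10.06 and 10.18 in TOV21G. No arrays of different lines overlapped, and the order ran from the arrays labelled SKOV3 through TOV112D and TOV21G to IGROV1. The excess over IGROV1 in the arrays labelled SKOV3 was 2.44 ± 0.07 (SE, limma, adjusted p = 9.9e-12), a 5.44-fold difference, and that over TOV112D 1.07 ± 0.07 (adjusted p = 2.5e-08). TOV112D in turn was 1.37 ± 0.07 above IGROV1 (adjusted p = 1.9e-09). The steps from TOV112D to TOV21G (0.64) and from TOV21G to IGROV1 (0.74) were larger than the spread of the arrays (adjusted p = 3.1e-06 and 1.1e-06) but under the 2-fold minimum.

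DUSP4 encodes a nuclear phosphatase of the same family. It measured 5.64, 5.51 and 5.83 in IGROV1, 6.37, 6.19 and 6.35 with the label SKOV3, 3.995, 4.18 and 3.77 in TOV112D, and 9.18, 9.17 and 9.24 in TOV21G. TOV21G stood far above all other arrays and TOV112D below them, with a difference of 5.21 ± 0.11 (SE, limma, adjusted p = 7.7e-13), or 37.1-fold. The TOV112D values lie under the median of all values on the array, where RMA values flatten, so this fold depends on the floor of the scale. TOV21G was 3.54 ± 0.11 above IGROV1 and 2.89 ± 0.11 above the arrays labelled SKOV3 (adjusted p = 5.2e-11 and 2e-10). IGROV1 and the arrays labelled SKOV3 differed by 0.64 (adjusted p = 0.00019), which was no call. DUSP4 and DUSP6 thus ranked TOV112D at opposite ends against IGROV1: DUSP4 was lower there by 1.68 ± 0.11 (adjusted p = 3e-08) and DUSP6 higher.

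DUSP5, a nuclear phosphatase selective for ERK, was highest in IGROV1. The arrays gave 9.91, 9.85 and 9.91 in IGROV1, 8.68, 8.50 and 8.61 for the label SKOV3, 5.34, 5.87 and 5.52 in TOV112D, and 8.55, 8.56 and 8.64 in TOV21G. IGROV1 lay above the arrays labelled SKOV3 by 1.29 ± 0.11 (SE, limma, adjusted p = 4.5e-07) and TOV112D by 4.32 ± 0.11 (adjusted p = 5.1e-12), which is 19.9-fold. The arrays labelled SKOV3 and TOV21G overlapped, with a difference of 0.02 and a 95% interval from -0.22 to 0.25. IGROV1 therefore had the highest DUSP5 and the lowest DUSP6 of the 4 lines.

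SPRY1, SPRY2 and SPRY4 encode Sprouty proteins, inhibitors of signalling from receptor tyrosine kinases. SPRY1 was high in TOV21G, at 9.75, 9.97 and 9.99, and in IGROV1, at 9.48, 9.54 and 9.44. With the label SKOV3 it measured 6.63, 6.55 and 6.58, and 5.44, 5.61 and 5.53 in TOV112D. The first 2 lines differed from each other by 0.42 ± 0.08 (limma, adjusted p = 0.00055), under the minimum for a call, while TOV21G was 4.38 ± 0.08 (20.8-fold) above TOV112D and 3.32 ± 0.08 (9.97-fold) above the arrays labelled SKOV3 (adjusted p = 2.1e-13 and 2.9e-12). The excess of the arrays labelled SKOV3 over TOV112D, 1.06 ± 0.08 (limma, adjusted p = 1.2e-07), was under the minimum with the mean of both SPRY1 probe sets (0.93).

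SPRY4 ran the other way between IGROV1 and the arrays labelled SKOV3. Its levels were 6.26, 6.04 and 6.28 in IGROV1, 9.29, 9.10 and 9.09 with the label SKOV3, 7.07, 7.31 and 7.21 in TOV112D, and 7.62, 8.07 and 7.89 in TOV21G. No arrays overlapped between lines. With the label SKOV3 the level was 2.97 ± 0.12 (SE) above IGROV1 (limma, adjusted p = 3e-10), or 7.82-fold, whereas SPRY1 was 2.90 ± 0.08 lower there than in IGROV1 (adjusted p = 8.3e-12), or 7.47-fold. The excess of TOV112D over IGROV1, 1.01 ± 0.12 (adjusted p = 8.3e-06), lay at the edge of the call. IGROV1 minus TOV112D was -0.93 without IGROV1 replicate 2 and -0.95 without TOV112D replicate 2, under the minimum.

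SPRY2 measured 8.68, 8.66 and 8.88 in IGROV1, 10.31, 10.18 and 10.34 with the label SKOV3, 6.52, 6.93 and 6.80 in TOV112D, and 9.30, 9.35 and 9.55 in TOV21G. TOV112D was the low line, 2.00 ± 0.11 (SE) under IGROV1, 2.65 ± 0.11 under TOV21G and 3.53 ± 0.11 under the arrays labelled SKOV3 (limma, adjusted p = 7.5e-09, 5.5e-10 and 4.3e-11). IGROV1 was below the arrays labelled SKOV3 by 1.53 ± 0.11 (adjusted p = 9.2e-08), and the excess of those arrays over TOV21G (0.87, adjusted p = 1.8e-05) was under the minimum.

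SPRED2, a membrane-bound inhibitor of RAF activation related to the Sprouty proteins, was the only member called in no pair. It measured 9.67, 9.68 and 9.74 in IGROV1, 9.74, 9.46 and 9.55 with the label SKOV3, 9.53, 9.62 and 9.58 in TOV112D, and 9.32, 9.20 and 9.33 in TOV21G. TOV21G was lowest and overlapped no other line. It lay 0.41 ± 0.08 (SE) under IGROV1 (limma, adjusted p = 0.00053), and the 95% interval of that difference, 0.25 to 0.58, does not reach 2-fold. Its span was larger than that of 37.4% of all genes, against 71.6% to 97.2% for the other members. The difference between the arrays labelled SKOV3 and TOV112D was 0.00, with a 95% interval from -0.16 to 0.17.

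ETV4 and ETV5 encode PEA3-group ETS factors, which lie downstream of ERK and of fibroblast growth factor receptors. ETV4 was low in IGROV1, at 6.14, 6.16 and 6.22, and measured 7.52, 7.41 and 7.50 with the label SKOV3, 7.42, 7.66 and 7.57 in TOV112D, and 7.13, 7.20 and 7.21 in TOV21G. IGROV1 lay under every other array. TOV112D exceeded it by 1.37 ± 0.07 and the arrays labelled SKOV3 by 1.30 ± 0.07 (SE, limma, adjusted p = 3.2e-09 and 5.4e-09). The excess of TOV21G over IGROV1, 1.01 ± 0.07 (adjusted p = 1e-07), was again at the edge. IGROV1 minus TOV21G missed the minimum without IGROV1 replicate 1 (-0.987) or 2 (-0.999) and without TOV21G replicate 2 (-0.993) or 3 (-0.992). TOV112D and the arrays labelled SKOV3 overlapped, with a difference of 0.07 and an interval from -0.08 to 0.22.

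ETV5 varied less. Its arrays gave 8.49, 8.44 and 8.48 in IGROV1, 9.03, 8.89 and 8.96 for the label SKOV3, 8.31, 8.46 and 8.42 in TOV112D, and 7.70, 7.84 and 7.75 in TOV21G. The 1 called pair set the arrays labelled SKOV3 above TOV21G, by 1.20 ± 0.06 (SE, limma, adjusted p = 6e-09), and it was not called with the mean of all ETV5 probe sets (0.97). That mean takes in 1 probe set whose line means all lie under the median of all values, with a difference of -0.33. Each of the other ETV5 probe sets called the pair, at 1.04 to 1.61. IGROV1 and TOV112D overlapped (difference 0.08, interval -0.06 to 0.21). ETV1, the third PEA3-group gene and chosen for mention after its values were seen, measured 2.46 ± 0.23 (SD, n = 3) in IGROV1, 7.15 ± 0.11 with the label SKOV3, 8.20 ± 0.06 in TOV112D and 6.67 ± 0.14 in TOV21G. IGROV1 was thus the lowest line for ETV1 and ETV4 and not for ETV5. The ETV1 level in IGROV1 lies under the median of all values, so differences from it depend on the floor of the scale.

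PHLDA1 measured 8.02, 7.79 and 7.83 in IGROV1, 11.54, 11.29 and 11.31 with the label SKOV3, 7.38, 7.54 and 7.27 in TOV112D, and 10.09, 10.26 and 10.25 in TOV21G. The lines formed a high and a low pair with no overlap. The label SKOV3 stood above TOV112D by 3.98 ± 0.10 (SE, limma, adjusted p = 4.7e-12) and above IGROV1 by 3.50 ± 0.10 (adjusted p = 1.3e-11), 15.8-fold and 11.3-fold. TOV21G was 2.32 ± 0.10 above IGROV1 (adjusted p = 1e-09) and 1.18 ± 0.10 under the arrays labelled SKOV3 (adjusted p = 3.6e-07). IGROV1 and TOV112D differed by 0.48 (adjusted p = 0.00085), which was no call.

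Set side by side, the pairs of lines split the members in different ways. These comparisons share arrays, so their counts are not independent. Between IGROV1 and the arrays labelled SKOV3, where 18.8% of all genes were called in either direction, 2 members were higher in IGROV1 (DUSP5, SPRY1; 10.2% of all genes) and 5 lower (DUSP6, SPRY2, SPRY4, ETV4, PHLDA1; 8.63%). Between IGROV1 and TOV112D (18% of all genes called), 4 were higher in IGROV1 (DUSP4, DUSP5, SPRY1, SPRY2; 9.09% of all genes) and 3 lower (DUSP6, SPRY4, ETV4; 8.91%). Against TOV21G (12.6% called), IGROV1 had 1 member higher (DUSP5; 5.85% of all genes) and 4 lower (DUSP4, SPRY4, ETV4, PHLDA1; 6.73%).

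Between the arrays labelled SKOV3 and TOV112D, with 16.1% of all genes called, 7 members were higher in the former, against 7.61% of all genes. By limma 0 members were lower, against 8.5%, and 0 were lower at an unadjusted p under 0.05. SPRED2, ETV4 and ETV5 were the 3 members not called there, and by the same limma fit ETV4 had adjusted p = 0.43, SPRED2 0.98 and ETV5 7.1e-06 at a difference of 0.57. In the comparison with TOV21G (17.4% of all genes called) those arrays had 4 members higher (DUSP6, SPRY4, ETV5, PHLDA1; 7.62% of all genes) and 2 lower (DUSP4, SPRY1; 9.82%). Between TOV112D and TOV21G (17% of all genes called), 0 members were called higher in TOV112D (7.84% of all genes) and 5 lower (DUSP4, DUSP5, SPRY1, SPRY2, PHLDA1; 9.16%). DUSP6, ETV4, ETV5 and SPRED2 were above TOV21G in TOV112D, by 0.64, 0.37, 0.63 and 0.29. All 4 were past a limma p of 0.05, unadjusted and adjusted (adjusted p = 3.1e-06, 0.00054, 2.5e-06 and 0.0054), and short of the 2-fold minimum. The median difference over the 10 members ran from 1.52 for the arrays labelled SKOV3 minus TOV112D to -1.66 for TOV112D minus TOV21G, while over all genes it lay between -0.03 and 0.01 in each pair.

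A member was set apart in a line when each of its comparisons with the other 3 was called in one direction. This held for 8 of 10 members, against 16.5% of all genes. TOV112D had 4 members set apart as lower (DUSP4, DUSP5, SPRY1, SPRY2; 2.38% of all genes) and the arrays labelled SKOV3 had 3 as higher (DUSP6, SPRY4, PHLDA1; 3% of all genes). For SPRY1 this rests on a difference of 1.06 between the arrays labelled SKOV3 and TOV112D. That difference was 0.80 with its other probe set and 0.93 with the mean of both, under the minimum. DUSP5 was set apart as higher in IGROV1 (2.62% of all genes) and DUSP4 as higher in TOV21G (2.37%). SPRY4 and ETV4 were set apart as lower in IGROV1 (1.85% of all genes), both at the edge described above. By limma 0 members were set apart as higher in TOV112D (3% of all genes), lower in the arrays labelled SKOV3 (2.37%) or lower in TOV21G (0.956%). This count of 2 fell to 0 with each array centred on its median, under quantile normalization of the gene values and without IGROV1 replicate 2, and to 1 without IGROV1 replicate 1, TOV112D replicate 2, TOV21G replicate 2 or TOV21G replicate 3.

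Arrays of 2 lines did not overlap in 55 of the 60 combinations of member and pair, against 58.2% of the combinations over all genes. The 5 overlaps were DUSP5 between the arrays labelled SKOV3 and TOV21G, SPRED2 between those arrays and IGROV1 and between them and TOV112D, ETV4 between them and TOV112D, and ETV5 between IGROV1 and TOV112D.

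**Figure D2:**
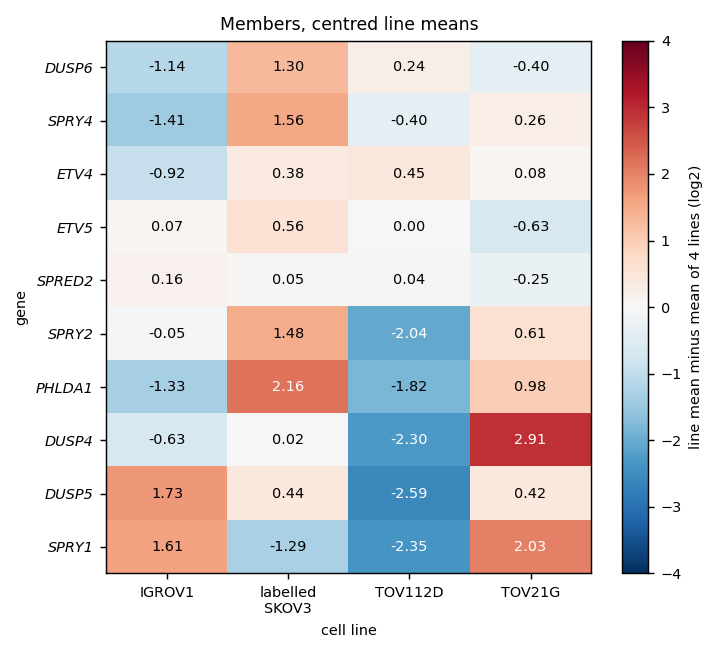
Line mean of each member minus its mean over the 4 lines (log2); rows are genes, columns lines, red above and blue below the gene's own mean. DUSP6, SPRY4 and ETV4 are lowest in IGROV1, and DUSP4, DUSP5 and SPRY1 are lowest in TOV112D.

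Averaged over the 10 members, each centred on its own mean over the 4 lines, the level was 0.67 ± 0.08 (SD over 3 arrays) in the arrays labelled SKOV3, 0.60 ± 0.06 in TOV21G, -0.19 ± 0.05 in IGROV1 and -1.08 ± 0.11 in TOV112D. This mean hides opposite members. By line means, 9 members were above and 1 (SPRY1) below their own means with the label SKOV3, TOV21G 7 above and 3 below, IGROV1 4 above and 6 below, and TOV112D 3 above and 7 below. Some members lay close to their own mean. Counted by array, 7 to 9 were above with the label SKOV3 and 7 in TOV21G. The counts above were 4 to 5 in IGROV1 and 2 to 4 in TOV112D. DUSP6, SPRED2 and ETV4 were the 3 whose TOV112D line mean was above their own mean.

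How alike 2 members were was measured as the root mean square difference of their centred line means, over 4 lines and with no test. Among the 9 members that spanned at least 1, DUSP6 and SPRY4 were the closest pair, at 0.49, followed by DUSP6 and ETV4 at 0.54. SPRY2 and PHLDA1 were 0.76 apart. DUSP6 and SPRY1 were the farthest of all pairs, at 2.59, and SPRY1 and SPRY4, both Sprouty genes, followed at 2.46. DUSP4 and DUSP6, both phosphatase genes, were 2.198 apart.

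To set the sequences beside these profiles, the 250 bases before their start sites are shown, 5′ to 3′ on the gene's strand, from the RefSeq promoter windows of GRCh38.p14. The windows matched 6 of the 10 members (DUSP6, PHLDA1, SPRED2, SPRY1, SPRY2, SPRY4) and not DUSP4, DUSP5, ETV4 or ETV5. DUSP6 is shown for chr12:89352502-89352751 (minus strand), SPRY4 for chr5:142324248-142324497 (minus strand), SPRY2 for the first of its 3 windows at chr13:80341127-80341376 (minus strand) and PHLDA1 for chr12:76031777-76032026 (minus strand). Capitals mark CCGGAA, a strict form of the ETS factor site, on either strand. The shorter core GGAA was not searched and is not marked.
DUSP6: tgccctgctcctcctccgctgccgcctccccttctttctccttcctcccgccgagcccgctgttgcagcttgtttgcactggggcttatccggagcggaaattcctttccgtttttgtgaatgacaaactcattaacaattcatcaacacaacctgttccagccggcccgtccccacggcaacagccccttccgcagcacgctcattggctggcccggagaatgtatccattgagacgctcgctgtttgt
SPRY4: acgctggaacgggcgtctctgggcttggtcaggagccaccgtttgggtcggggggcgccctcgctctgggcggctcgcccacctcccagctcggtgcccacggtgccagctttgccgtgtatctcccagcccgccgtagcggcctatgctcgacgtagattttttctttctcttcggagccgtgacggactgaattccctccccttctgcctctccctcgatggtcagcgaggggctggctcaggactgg
SPRY2: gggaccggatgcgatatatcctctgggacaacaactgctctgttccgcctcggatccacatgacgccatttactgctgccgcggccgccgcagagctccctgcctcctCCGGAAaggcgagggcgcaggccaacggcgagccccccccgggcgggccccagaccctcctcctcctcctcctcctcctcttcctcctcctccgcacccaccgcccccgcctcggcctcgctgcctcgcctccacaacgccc
PHLDA1: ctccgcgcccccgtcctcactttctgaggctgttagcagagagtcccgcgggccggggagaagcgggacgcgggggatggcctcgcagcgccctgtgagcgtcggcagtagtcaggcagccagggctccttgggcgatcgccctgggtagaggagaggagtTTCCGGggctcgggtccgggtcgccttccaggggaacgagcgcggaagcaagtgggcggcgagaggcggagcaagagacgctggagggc

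Each RefSeq window holds 300 bases, 250 before and 50 after the start site. CCGGAA was in 3 of the 10 windows of the members, those of PHLDA1 (first base at position -89 from the start site), SPRY2 (-142) and the second window of SPRY1 (-67), and 17.2% of the 35116 windows in the table hold it. The windows of DUSP6 and SPRY4, the closest pair among the members that spanned at least 1, do not hold CCGGAA. The printed bases of both hold the shorter GGAA. The AP-1 site TGACTCA, searched on both strands, was in 1 window, the second of SPRED2, against 4.95% of all windows. The cyclic AMP response element TGACGTCA was in 0 of 10, against 1.85%, and the CArG box was in 0 of 10, against 1.29%. These are matches of letters, with no measurement of binding.

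All 27 probe sets were then examined, since 7 members have more than 1. In a fit over all 54613 probe sets that are not array controls, 23 of the 27 were called in at least 1 pair, against 28.6% of all probe sets. The other 4 were the 3 probe sets of SPRED2 and 1 of ETV5. Of these, 2 of SPRED2 had all line means between 2.32 and 3.37 and the 1 of ETV5 had all between 3.83 and 4.16, under the median of all values.

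No probe set of a member was called in the opposite direction to the probe set that stands for the gene. The 3 probe sets of DUSP6 gave the same order of lines with spans of 2.44, 2.27 and 2.61. Those of DUSP4 also gave one order, but the span was 5.21 with the probe set that stands for the gene and 7.35 and 6.81 with the others, in which TOV112D was at 2.66 and 2.79. The fold given for DUSP4 is thus the smallest of the 3 available. For PHLDA1 all 6 placed the arrays labelled SKOV3 first and TOV21G second, with spans from 2.59 to 5.30, while the lowest line was TOV112D by 3 of them and IGROV1 by the other 3. The excess of the arrays labelled SKOV3 over TOV21G was not called by 2 of the 6, at differences of 0.86 and 0.27. By those 2 probe sets PHLDA1 was not set apart as higher in the arrays labelled SKOV3. Of the 5 for ETV5, 4 had the arrays labelled SKOV3 highest and TOV21G lowest. Of these, 1 also called IGROV1 above TOV21G, by 1.03, which the probe set that stands for the gene did not (0.71).

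**Figure D3:**
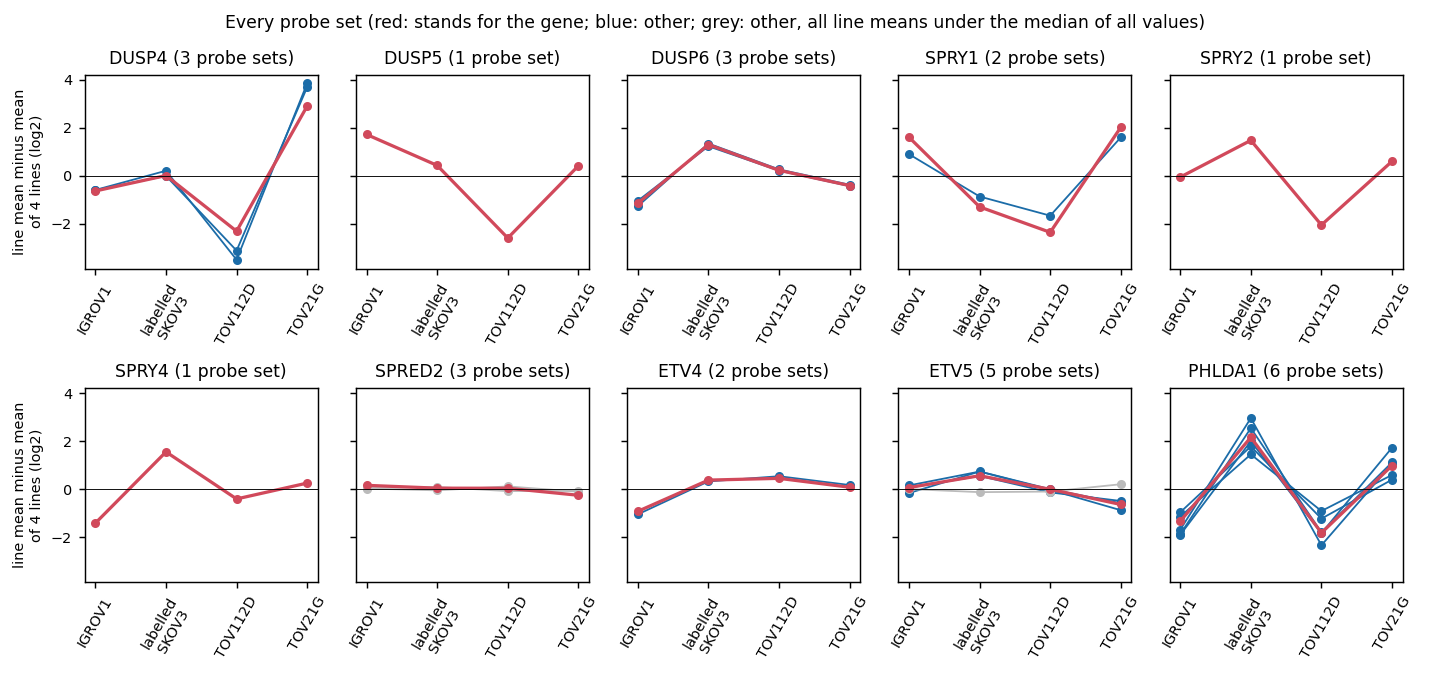
Centred line means (log2) of every probe set of the 10 members; lines join the 4 cell lines, red marks the probe set that stands for the gene, grey those whose line means all lie under the median of all values. Probe sets of a gene have like profiles apart from the grey ones, which are nearly flat.

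For each member that spanned at least 1, the gene outside the set with the closest profile over the 4 line means was found. F2RL2, a thrombin receptor gene, was closest to DUSP4 (root mean square difference 0.26), and GADD45A, a stress-induced growth arrest gene, to DUSP5 (0.25). ABHD18 was closest to DUSP6 (0.11), the fatty acid hydroxylase gene FA2H to SPRY1 (0.14), SH3D19 to SPRY2 (0.17) and ANKRD6 to SPRY4 (0.13). MFSD8 was closest to ETV4 (0.02), PABIR1 to ETV5 (0.02), and the clathrin adaptor gene AP1S2 to PHLDA1 (0.29). The median distance over all genes outside the set was 0.60 for ETV4, 0.49 for ETV5, 1.66 for PHLDA1 and 1.89 for DUSP4. Distances of different members therefore do not compare directly, and each is the smallest over all genes outside the set. The third closest gene to SPRY4 was SPRY4-IT1 (0.14), a noncoding transcript from within the SPRY4 gene, and the third closest to SPRY2 was JUN (0.19), an ERK-responsive AP-1 factor gene whose probe set may cross-hybridise. These 2 were picked for mention after their names were seen.

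The rest of the pathway was taken from 3 lists: other feedback regulators (19 measured), other ERK output genes (27 measured) and components of the RAS-RAF-MEK-ERK cascade (24 measured). Called in at least 1 pair were 9 of 19 feedback regulators, 26 of 27 output genes and 10 of 24 cascade genes, or 47.4%, 96.3% and 41.7%, against 34.4% of all genes. Their median spans were 0.93, 2.89 and 0.95, against 0.64 for all genes. By pair, 44.4% to 77.8% of the other output genes were called, 15.8% to 42.1% of the other feedback regulators and 8.33% to 25% of the cascade genes. For all genes the share was 12.6% to 18.8%. With a minimum difference of 0.5 in place of 1, 37.5% to 62.5% of the cascade genes were called, against 27.7% to 34.8% of all genes.

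**Figure D4:**
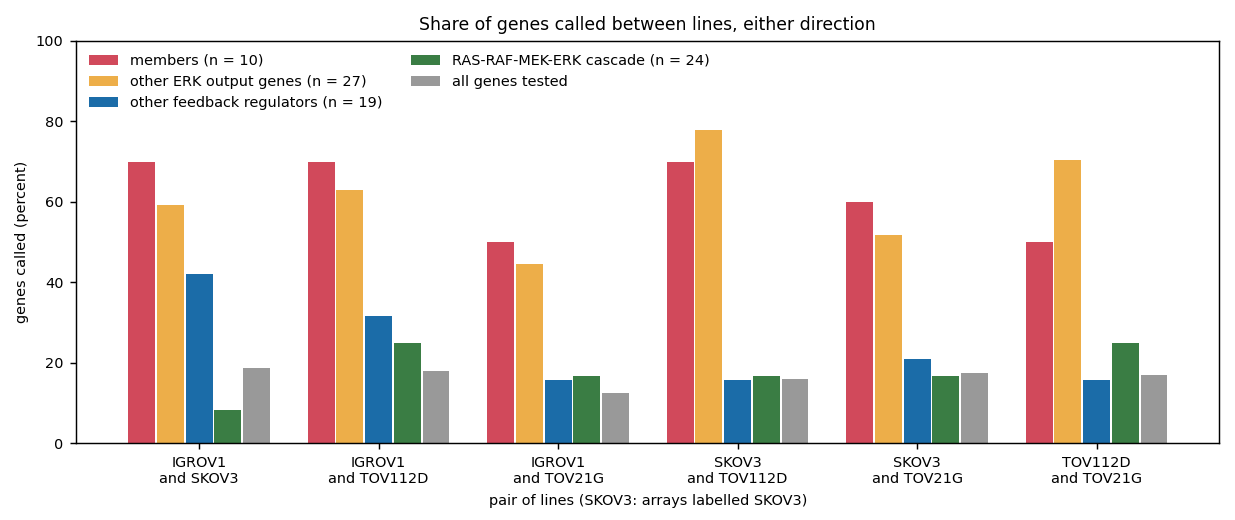
Percent of genes called in either direction in each of the 6 pairs of lines, for the 10 members, the 3 other pathway lists and all 19775 genes tested; SKOV3 stands for the arrays so labelled. The members lie at 50% to 70% and all genes at 12.6% to 18.8%.

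In each pair, 5.85% to 10.2% of all genes were called higher in the line named first and 6.73% to 9.82% lower. Between IGROV1 and the arrays labelled SKOV3 the other feedback regulators had 3 members higher in IGROV1 and 5 lower, the other output genes 4 and 12, and the cascade genes 1 and 1. The corresponding counts for IGROV1 and TOV112D were 3 and 3, 10 and 7, and 5 and 1, and for IGROV1 and TOV21G 0 and 3, 5 and 7, and 1 and 3. With the arrays labelled SKOV3 against TOV112D they were 3 and 0, 13 and 8, and 3 and 1, and against TOV21G 2 and 2, 9 and 5, and 1 and 3. TOV112D against TOV21G gave 0 and 3, 8 and 11, and 0 and 6. After centring every array on its median, the split was 1 and 3 for feedback regulators between IGROV1 and TOV21G, 9 and 3 for output genes between the arrays labelled SKOV3 and TOV21G, and 1 and 6 for cascade genes between TOV112D and TOV21G.

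IL17RD, the gene of the receptor-like inhibitor SEF, had the largest span of the other feedback regulators. It was at 4.98 ± 0.09 (SD, n = 3) in IGROV1, 10.51 ± 0.02 in the arrays labelled SKOV3, 7.21 ± 0.21 in TOV112D and 7.53 ± 0.16 in TOV21G, and like SPRY4 it was set apart as higher in the arrays labelled SKOV3 and as lower in IGROV1. DUSP10, a phosphatase gene for the stress kinases JNK and p38, was set apart as lower in TOV112D, at 3.38 ± 0.47 against 7.11 in IGROV1 and 7.04 in TOV21G. DUSP9, an ERK phosphatase gene, was set apart as higher in TOV21G, at 7.44 ± 0.09 against 4.50 to 5.54. DUSP1, added after its values were seen, measured 9.97 in IGROV1, 9.94 in TOV21G, 7.13 with the label SKOV3 and 7.55 in TOV112D. SPRED1, named likewise, was at 7.72 in IGROV1 and at 8.31 to 9.10 elsewhere.

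**Figure D5:**
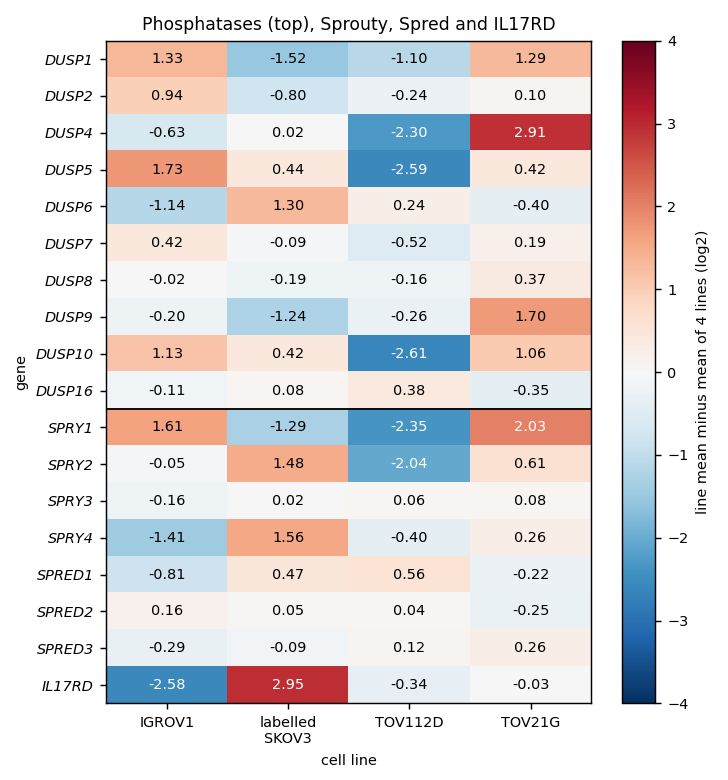
Line mean minus the mean over the 4 lines (log2) for 10 phosphatase genes (above the line) and for Sprouty and Spred genes and IL17RD (below it). TOV112D is lowest for DUSP4, DUSP5, DUSP10, SPRY1 and SPRY2, and IL17RD ranges from 4.98 in IGROV1 to 10.51 in the arrays labelled SKOV3.

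Several of the low levels given here (SLCO4A1 at 3.49, TRIB2 at 3.57, DUSP10 at 3.38, RASGRP1 at 2.66 to 3.39) lie under the median of all values, so differences from them depend on the floor of the scale. Among the other output genes, SLCO4A1, an organic anion transporter gene, measured 3.49 with the label SKOV3 and 10.01 in TOV21G, a difference of 6.52 ± 0.14 (SE, limma, adjusted p = 1.6e-12). EMP1, an epithelial membrane protein gene, was at 6.77 in TOV21G and 13.02 in TOV112D (6.25 ± 0.08, adjusted p = 1.5e-14). TRIB2, a pseudokinase gene, was at 3.57 in TOV112D and 9.41 in the arrays labelled SKOV3 (5.84 ± 0.23, adjusted p = 3.5e-10). Among the cascade genes, RASGRP1, which encodes an exchange factor that loads RAS with GTP, was set apart as higher in TOV21G, at 6.22 ± 0.03 (SD, n = 3) against 2.66 to 3.39. MRAS, a RAS-related GTPase gene, measured 8.59 in TOV112D, 8.17 in TOV21G, 6.15 in IGROV1 and 6.94 with the label SKOV3. RRAS2, another RAS-related GTPase gene, was set apart as lower in TOV112D, at 8.72 against 10.21 to 10.99.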

How the data were processed

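RNA from 4 lines was hybridised to 12 arrays. The deposited table holds log2 values, which the authors made with RMA in affy per the submitters' processing notes. The version and the filters were not given in the sources used here. RMA equalises the arrays' distributions, so differences in total RNA cannot be seen. Arrays were assigned by title. Probe sets were named from the platform annotation; 41097 of 54675 name 1 gene, and 62 controls were left out. A gene was represented by its probe set with the highest mean over the 12 arrays. Some genes of the pathway lists are not analysed here.

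limma 3.58.1 in R 4.3.3 estimated the mean of each line from the 12 arrays (residual degrees of freedom 8), with eBayes and Benjamini-Hochberg adjustment within each of 6 pairwise contrasts over 19775 genes. The test was run on simulated data. At log2 changes of 1.5, 2, 3 and 4, 49 or 50 of 50 genes were recovered in each pair, with 0 false calls. All of these lie above the minimum difference of 1. Recovery nearer that minimum, where the calls at the edge lie, was not tested. Named genes were all members and, per other list, the 3 called genes with the largest span, and the closest gene in profile to each member; the printed promoters and other names were chosen after values were seen. The members and lists were chosen with earlier results of these data known. No 2 arrays held identical values. Alternatives were another summary per gene, filters, scalings, priors, a replicate block, fewer arrays, a fit over all probe sets and a smaller minimum difference.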

Additional observations from a re-analysis of the deposited data

How the results depend on the processing

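The number of arrays limits the precision, with a median standard error of 0.09 for a difference between 2 lines. Of 12 kinds of alternative, 7 moved no count of calls by over 1.5 times and changed no direction or call of a member difference. This was over 38 counts and 60 differences (15 and 30 where the arrays labelled SKOV3 were left out). The first of these were omitting _x_at probe sets, omitting dim genes, fitting all probe sets together, and a trended and robust prior. The others were only the 6 arrays of the pair, leaving out the arrays labelled SKOV3, and the replicate number as a block. None of the 7 alters the line means of a member. The size and direction of the member differences were therefore fixed, and only their p-values could change. Same-numbered arrays of different lines had deviations correlated at -0.10 to 0.13, and 6 of 12 arrays correlated best with their own number. The mean correlation was 0.02 for same numbers and -0.01 for other numbers. These values are too small to show whether the numbers pair the arrays. Every line has the same replicate numbers, so the block cannot change a difference between lines. With it, 7 of 10 members were higher in the arrays labelled SKOV3 than in TOV112D, a direction fixed by the design.

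Centring the arrays gave 0 members set apart as lower in IGROV1 in place of 2, and so did quantile normalization (0); leaving out each array gave 0 to 2. The differences of SPRY4 between IGROV1 and TOV112D and of ETV4 between IGROV1 and TOV21G were -0.97 and -0.87 with centring and -0.97 and -0.94 with quantile normalization, and SPRY2 between the arrays labelled SKOV3 and TOV21G reached 1.03 with centring. Centring moved the median difference of all genes by over 0.1 in pairs with TOV21G, to 0.13 for IGROV1, 0.13 for the arrays labelled SKOV3 and 0.08 for TOV112D, each minus TOV21G. With the mean of all probe sets 2 cascade genes were called between the arrays labelled SKOV3 and TOV21G in place of 4, and SPRY1 between those arrays and TOV112D fell to 0.93.

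With a minimum difference of 0.5, by construction more genes were called, 27.7% to 34.8% of all genes by pair. Members higher in IGROV1 than TOV21G went to 2, members higher in TOV112D than TOV21G to 2 (13.8% and 17.5% of all genes), and members set apart as lower in TOV21G to 1 (3.09%). Cascade genes called went to 13 (IGROV1 and the arrays labelled SKOV3), 14 (IGROV1 and TOV112D), 9 (IGROV1 and TOV21G), 14 and 9 (the arrays labelled SKOV3 with TOV112D and with TOV21G) and 15 (TOV112D and TOV21G). Other feedback regulators went to 8 (IGROV1 and TOV21G), 6 and 12 (the arrays labelled SKOV3 with TOV112D and with TOV21G) and 9 (TOV112D and TOV21G), and other output genes to 20 (IGROV1 and TOV21G).

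Signs turned only where no difference was called: ETV5, IGROV1 minus TOV112D, was -0.0091 under quantile normalization (limma, adjusted p = 0.91). SPRED2 between the arrays labelled SKOV3 and TOV112D ranged from -0.076 to 0.066 and DUSP5 between those arrays and TOV21G from -0.025 to 0.064 with 1 array left out. The causes were not tested.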

Other observations

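The early-response genes EGR1, EGR3, FOS and JUNB, chosen for mention after their values were seen, had their highest levels in TOV112D, where DUSP4, DUSP5, SPRY1 and SPRY2 were lowest. Other such genes did not: FOSL1 was highest in IGROV1 (7.82 against 6.37 in TOV112D), MAFF in TOV21G (9.77 against 8.29) and IER2 with the label SKOV3 (10.39 against 10.11). EGR1, a zinc finger factor gene induced within minutes of ERK activation, was at 10.80 ± 0.03 (SD, n = 3) in TOV112D, 5.06 ± 0.42 in TOV21G, 7.63 ± 0.14 in IGROV1 and 8.19 ± 0.24 with the label SKOV3. EGR3 was at 7.71 ± 0.04 in TOV112D and at 3.63 to 3.82 in the other lines. FOS measured 6.59 ± 0.19 in TOV112D and 4.03 in TOV21G, its lowest line, and JUNB 7.43 ± 0.02 against 4.67 to 6.31. All 4 were set apart as higher in TOV112D, as were 6 of the 27 other output genes in all and 3% of all genes, while 7 of the 27 were set apart as lower there, against 2.38% of all genes. JUN, whose probe set may cross-hybridise, was one of the lower ones, at 7.03 ± 0.19 against 9.39 to 10.56. The EGR3 levels outside TOV112D and the FOS level in TOV21G lie under the median of all values (4.44). Differences from them depend on the floor of the scale.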
